A study of Mus musculus with 12 samples.

Results

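The genes described here encode integrins and the proteins that tie them to the actin cytoskeleton at focal adhesions. They were taken by name: 23 integrin subunits, without Itga6 and Itgb4, and 13 adaptors and kinases, 36 genes in all. A probe set annotated to that gene symbol alone was found for 33 of them, 22 subunits and 11 adaptors and kinases, among 18193 genes measured. Itga11, Fermt1 and Ptk2 had none and were not analysed here.

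Gene expression was measured on 1-colour Affymetrix arrays in 12 mouse tumour samples, 4 for each of the lung adenocarcinoma lines 344SQ, 393LN and 393P. All lines came from mice carrying p53R172H∆g/+ and K-rasLA1/+, so these alleles are shared by every group and no wild-type tissue was compared. A single mouse gave both 393P, from a primary tumour in the lung, and 393LN, from a mediastinal node, whereas 344SQ came from a subcutaneous site in another mouse; each is a mass culture, not a clone. The labels call 344SQ highly metastatic, 393LN intermediately metastatic and 393P non-metastatic. The RNA was that of dissected tumours grown in syngeneic mice, whose ages and treatment are not given in the sources used here. In a comparison with 344SQ, the line, its site of origin and the mouse it came from cannot be told apart. Nothing in the labels beyond the sample numbers says that the 4 samples of a line are separate animals, so p-values measure the spread between these samples.

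Integrins are receptors made of an alpha and a beta chain that hold cells to the extracellular matrix or to other cells. Talins and kindlins bind the tail of the beta chain and switch the receptor on; vinculin, paxillin, zyxin and the complex of integrin-linked kinase, PINCH and parvin then connect it to actin and to signalling kinases. In lung epithelium the laminin receptor alpha3-beta1 anchors cells to the basement membrane, and alphav-beta6 activates TGF-beta. Several subunits, such as those of the beta2 family, belong to leukocytes, which a tumour sample also holds.

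Stretches of the promoters of Zyx, Itga9 and Vcl are shown because these genes had the smallest adjusted p-values among the members in comparisons with 344SQ, Zyx and Itga9 falling in both comparisons and Vcl rising against 393LN. Each is the run of 250 bases just before an annotated start of the gene, which need not be its first start. All are on the plus strand of GRCm38.p6, from RefSeq: chr6:42349578-42349827 for Zyx, chr9:118711442-118711691 for Itga9 and chr14:20929148-20929397 for Vcl. Capitals mark matches to 3 motifs searched on both strands: the CArG box bound by serum response factor, the E-box CACCTG bound by the Zeb and Snail repressors, and the AP-1 site TGANTCA. The motifs do not overlap in these stretches.
Zyx: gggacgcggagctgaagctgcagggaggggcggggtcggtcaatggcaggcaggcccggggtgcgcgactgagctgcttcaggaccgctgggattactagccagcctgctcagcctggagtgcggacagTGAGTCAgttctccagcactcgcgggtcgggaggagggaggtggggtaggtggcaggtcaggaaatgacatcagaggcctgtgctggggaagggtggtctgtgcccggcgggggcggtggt
Itga9: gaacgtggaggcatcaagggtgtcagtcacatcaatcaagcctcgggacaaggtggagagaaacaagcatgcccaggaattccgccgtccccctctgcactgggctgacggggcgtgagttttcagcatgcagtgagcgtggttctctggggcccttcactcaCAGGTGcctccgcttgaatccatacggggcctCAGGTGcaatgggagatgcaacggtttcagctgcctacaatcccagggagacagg
Vcl: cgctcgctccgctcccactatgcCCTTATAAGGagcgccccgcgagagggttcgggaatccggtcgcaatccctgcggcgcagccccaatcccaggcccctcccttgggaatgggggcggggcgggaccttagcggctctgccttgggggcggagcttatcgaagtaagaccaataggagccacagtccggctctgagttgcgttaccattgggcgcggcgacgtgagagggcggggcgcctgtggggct
The Zyx stretch holds 1 AP-1 match, the Itga9 stretch holds 2 matches to the E-box on the opposite strand, and the Vcl stretch holds 1 CArG box. Over all 32851 stretches of this length, 1.47% hold a CArG box, 17.2% the E-box and 6.75% the AP-1 site. Such stretches, 27 in all, were at hand for 24 of the 33 measured members. Of these 24 members 3 hold a CArG box (Vcl, Fermt2 and Itgb6), 6 the E-box (Itga9, Itga3, Itgb5, Itgb6, Itgb8 and Fermt3) and 2 the AP-1 site (Zyx and Itgax). A member was counted where any of its stretches matched, whereas the shares above are per stretch. A match describes the letters only.

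Values are log2(intensity + 16), on which the lowest possible level is 4.09, and changes are differences on that scale, which understate the change of a dim gene. Probe sets differ in how strongly they bind, so levels of different genes are not compared. A gene is said to rise or fall where limma's test gave a Benjamini-Hochberg adjusted p under 0.05 over all 18193 genes. Array medians lay between 7.19 and 7.29. Over all genes 344SQ was separate from the other lines, with a first principal component of -43.4 to -40.8 against 10.1 to 27.4. For actin, probes at the 3' end gave 1.47 times the signal of 5' probes on 393P replicate 1 and 1.04 to 1.19 times on the rest, a gauge of RNA integrity. The epithelial markers Cdh1, Krt8, Krt18, Krt7 and Krt19 were high in all lines (line means of 13.20 to 14.28), while Epcam was at 9.63 in 344SQ against 13.27 and 13.45 in 393LN and 393P. The lung lineage gene Nkx2-1 lay at 4.24, 4.18 and 4.15 in 344SQ, 393LN and 393P, near the floor, so this defining gene of lung epithelium was absent or below detection in all lines. Of 6 lung lineage markers only Sftpb was called; it was at 12.83 in 344SQ against 7.52 and 7.60.

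Tumours of 344SQ were compared with those of 393P to set the highly metastatic line against the non-metastatic one. Zyx, Ilk and the integrin subunits Itga3, Itga9 and Itgax were lower in 344SQ, by 1.39-fold to 2.12-fold, and no member rose. Thus 5 of 33 members fell, or 15.2%, against 5.62% of all genes tested. Of all genes 4.86% rose, and the share called either way was 10.5%. By mean signal, 13 of 33 members lie among the brightest 25% of all genes and 3 among the dimmest 25%. Here and below, the shares of members and of all genes are therefore not matched for brightness. At an unadjusted p under 0.05 in the same limma fit, 5 of 33 members were higher and 9 lower, beside 2052 and 2240 of all 18193 genes. The median change of the members was -0.02, beside -0.0007 for all genes, and only Itgax passed a 2-fold difference (3.03% of members against 4.16% of all genes). In 6 members (18.2%) the 4 values of one line did not overlap the other 4, against 16.7% of all genes. Differences were positive for 16 members and negative for 17. The number that fell was 3 without 344SQ replicate 3 or 393P replicate 3.

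344SQ was compared with 393LN to set it against the line of intermediate metastatic potential. Here Zyx, Itga3, Itga9 and Itgax fell, and Vcl and Itga2 rose. That is 12.1% of the members lower and 6.06% higher, against 6.92% and 3.99% of all genes, and 18.2% called either way against 10.9%. At an unadjusted p under 0.05 in the limma fit 7 of 33 members were higher and 5 lower, beside 1922 and 2748 of all 18193 genes. The median was 0.07 (all genes -0.02), and 0 members reached a 2-fold difference, as 3.89% of all genes did. In 4 members (12.1%) the values did not overlap, against 17.4% of all genes. The number called was 3 without 344SQ replicate 3, 393LN replicate 2 or 393P replicate 3. The 4 members that fell in both comparisons were measured against the same 344SQ arrays, so the second fall is not an independent repeat of the first.

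393LN and 393P, grown from a node and a primary tumour of the same mouse, differed in few members. Itgb7 and Vcl were lower in 393LN and none was higher (6.06% against 0.698% of all genes lower; 2.45% of all genes were called either way and 1.75% were higher). At an unadjusted p under 0.05 in limma's fit 1 of 33 members was higher and 5 were lower, beside 1824 and 1027 of all 18193 genes. The median was -0.11 (all genes 0.0095). The values did not overlap in 3 members (9.09%, all genes 10.3%), and 1 reached a 2-fold difference (3.03%, all genes 1.19%). Both calls were fragile, and the number called was 0 without any of 393LN replicates 1, 2 and 3 or 393P replicates 2, 3 and 4, and 1 without any of 344SQ replicates 1, 2 and 3 or 393LN replicate 4.

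**Figure D1:**
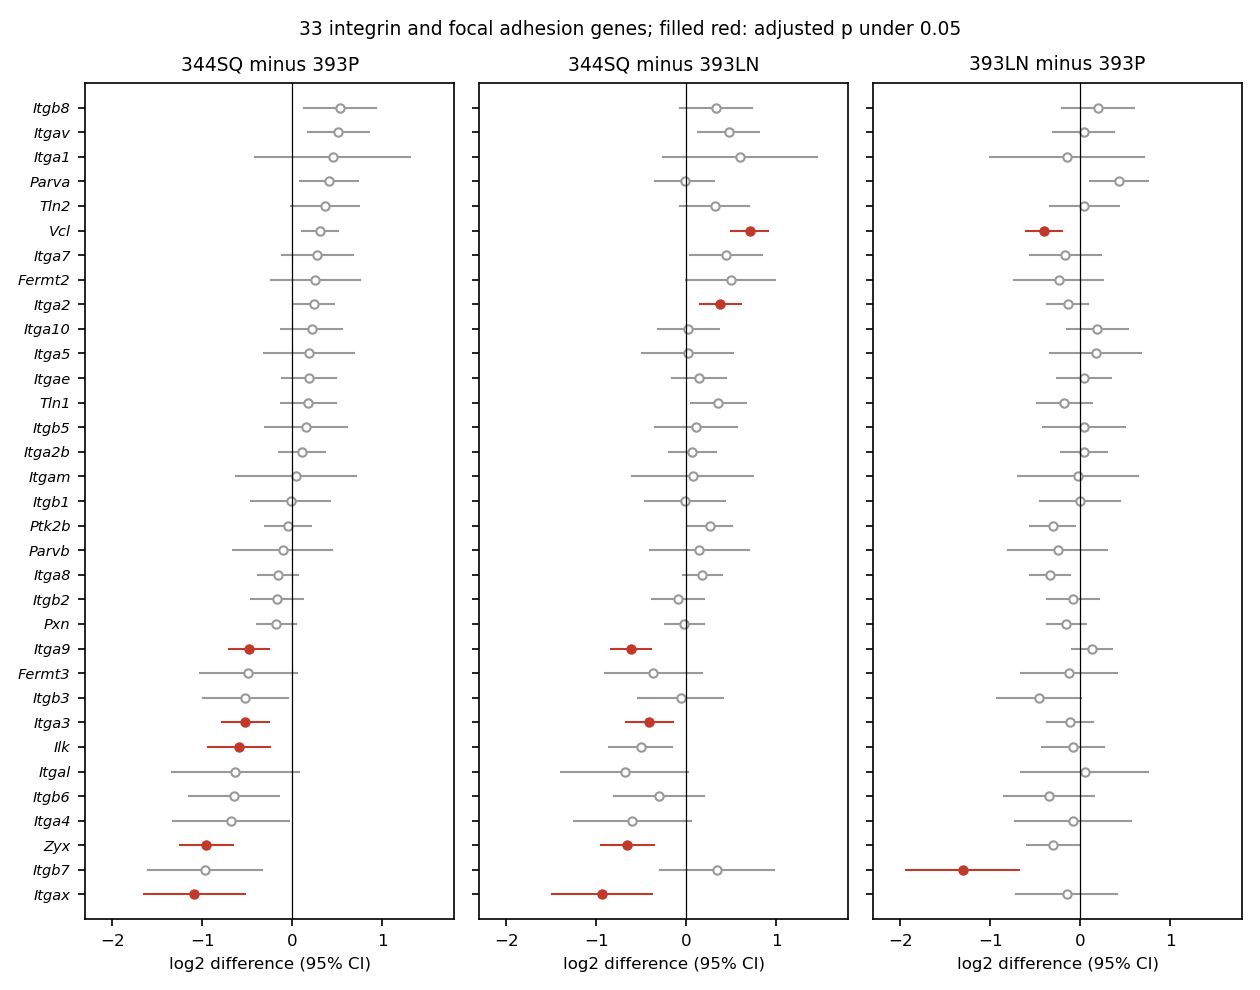
Log2 difference (horizontal axis) of each of the 33 measured members in the 3 comparisons of lines, with 95% confidence intervals from limma; filled red points have an adjusted p under 0.05. Most intervals include 0 or lie close to it; 5, 6 and 2 members were called in the 3 panels from left to right.

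Zyxin, encoded by Zyx, is a LIM protein that gathers Ena/VASP proteins at focal adhesions and stress fibres. Zyx was at 10.71, 10.61, 10.99 and 10.68 on the 4 arrays of 344SQ, at 11.14, 11.40, 11.52 and 11.57 in 393LN, and at 11.45, 11.90, 11.81 and 11.68 in 393P. All 344SQ values lay below all values of either other line, while those of 393LN and 393P overlapped. It fell by 0.96 (SE 0.13, 1.94-fold, n = 4 per line, adjusted p = 0.000844) in 344SQ against 393P and by 0.66 (SE 0.13, 1.57-fold, adjusted p = 0.00967) against 393LN. Between 393LN and 393P the difference was -0.30 (adjusted p = 0.303). Its dimmer probe set fell by 1.42 against 393P (adjusted p = 0.00685 over 34945 probe sets) and had a difference of -0.92 against 393LN (adjusted p = 0.0573).

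Vinculin, the product of Vcl, links talin to actin and strengthens an adhesion under load. Vcl was at 13.05, 13.16, 13.05 and 13.27 in 344SQ, at 12.40, 12.47, 12.32 and 12.51 in 393LN and at 12.72, 12.91, 12.86 and 12.81 in 393P. The 3 lines did not overlap at all, with 344SQ highest and 393LN lowest. Vcl rose by 0.71 (SE 0.09, 1.63-fold, adjusted p = 0.000637) in 344SQ against 393LN. Against 393P the difference was 0.31 (SE 0.09, adjusted p = 0.0560), which passed under 6 alternative settings. In 393LN it was lower than in 393P by 0.40 on the log2 scale (a difference of -0.40, SE 0.09, adjusted p = 0.0460). That call was lost without any of 10 arrays, all but 344SQ replicate 4 and 393P replicate 1 (highest adjusted p 0.120, differences of -0.43 to -0.36). Vcl also lost it with a pseudocount of 1, over the 8 arrays compared and over the mean of its probe sets (adjusted p = 0.0539, 0.0858 and 0.841). Its other, dimmer probe set had differences of 0.53, 0.51 and 0.02 in the 3 comparisons in the order given above, none called, and over the mean of its probe sets the call against 393LN was lost (a difference of 0.61, adjusted p = 0.231).

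Integrin-linked kinase, encoded by Ilk, is a pseudokinase that forms a complex with PINCH and parvin on the beta tail. Its values were 10.93, 10.94, 11.08 and 11.29 in 344SQ, 11.28, 11.51, 11.74 and 11.75 in 393LN, and 11.24, 11.76, 11.91 and 11.70 in 393P. The highest 344SQ array, replicate 4, reached the lowest of each other line. Ilk fell by 0.59 (SE 0.16, 1.5-fold, adjusted p = 0.0349) against 393P, and had a difference of -0.51 (adjusted p = 0.0626) against 393LN. The call against 393P was lost without any of 344SQ replicates 1, 2 and 3 or 393P replicates 2, 3 and 4 (differences of -0.60 to -0.50, highest adjusted p 0.104). A fit of only the 8 arrays compared lost it too (adjusted p = 0.0514). Of the partners of Ilk, Parva (a parvin adaptor) had line means of 10.71, 10.72 and 10.29 in 344SQ, 393LN and 393P. Its difference between 344SQ and 393P was 0.41 (adjusted p = 0.107), while its other probe set had -0.05 (adjusted p = 0.941 over the probe sets). Parvb, the relative of Parva, was at 9.99, 9.84 and 10.09. Lims1, which encodes PINCH and is not a member, is named because it belongs to the complex, after its values were seen: it rose by 0.53 and 0.49 in 344SQ against 393P and 393LN.

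The alpha3 subunit, encoded by Itga3, is the epithelial receptor chain for laminin-332 and laminin-511. Itga3 lay at 11.93, 12.25, 12.01 and 12.01 in 344SQ, 12.51, 12.62, 12.51 and 12.18 in 393LN and 12.46, 12.65, 12.67 and 12.48 in 393P. Every 344SQ value was below every 393P value, and 393LN replicate 4 fell within the 344SQ range. It fell by 0.52 (SE 0.12, 1.43-fold, adjusted p = 0.0160) against 393P and by 0.41 (SE 0.12, 1.33-fold, adjusted p = 0.0476) against 393LN. Another probe set of Itga3 fell more, by 0.81 and 0.83 (adjusted p = 0.00979 and 0.0101 over the probe sets), and the remaining one had uncalled differences of -0.73 and -1.24. The call against 393P was lost without 393P replicate 3 (-0.49, adjusted p = 0.0525) and, with a larger difference, over the mean of its probe sets (-0.69, adjusted p = 0.138). The call against 393LN was lost under 16 of 24 alternative settings. Among these were arrays centred on their median (-0.38, adjusted p = 0.0632), a pseudocount of 1, array weights, a fit of only the 8 arrays compared, and, with larger differences, the mean of all probe sets (-0.83, adjusted p = 0.0703) and the most variable probe set (-1.24, adjusted p = 0.283). The 16 also include leaving out any of 9 arrays, namely 344SQ replicates 1, 3 and 4, 393LN replicates 1, 2 and 3 and 393P replicates 2, 3 and 4 (differences of -0.41 to -0.35, highest adjusted p 0.121). The other laminin-binding chain measured, Itga7 of muscle, was at line means of 7.98, 7.53 and 7.70 and passed in no comparison. Itga6 and Itgb4, which form the hemidesmosome receptor, are not members: Itgb4 fell by 0.85 and 0.91 against 393P and 393LN, whereas Itga6 rose by 0.47 against 393LN and had a difference of 0.36 against 393P (adjusted p = 0.0585).

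Itga9 encodes the chain that pairs with beta1 to bind tenascin-C, osteopontin and VCAM-1. It was at 7.72, 7.63, 7.86 and 7.59 in 344SQ, 8.37, 8.26, 8.4 and 8.23 in 393LN and 8.32, 8.13, 8.01 and 8.26 in 393P. No 344SQ value reached either other line. Itga9 fell by 0.48 (SE 0.10, 1.39-fold, adjusted p = 0.0112) against 393P and by 0.61 (SE 0.10, 1.53-fold, adjusted p = 0.00306) against 393LN. Its probe sets disagree: another of nearly the same brightness, with line means of 7.90, 8.03 and 8.12, had differences of -0.23 and -0.13 (adjusted p = 0.669 and 0.798), and the remaining one lay near the floor. The mean of its probe sets gave -0.25 and -0.20 (adjusted p = 0.375 and 0.457), so the fall of Itga9 rests on 1 probe set.

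Of the collagen-binding chains, Itga2 was the only one called. Itga2 forms the collagen receptor of epithelium and platelets, and was at 8.86, 8.87, 9.02 and 9.02 in 344SQ, 8.79, 8.46, 8.57 and 8.43 in 393LN and 8.75, 8.58, 8.71 and 8.76 in 393P. The 344SQ values lay above all others. The gene rose by 0.38 (SE 0.10, 1.30-fold, adjusted p = 0.0365) against 393LN, while the difference of 0.24 from 393P missed the threshold (adjusted p = 0.181). The call was lost without any of 8 arrays: the 4 of 344SQ, 393LN replicates 2, 3 and 4, and 393P replicate 3 (differences of 0.34 to 0.41, highest adjusted p 0.0925). A fit of only the 8 arrays compared and the choice of each gene's most variable probe set lost it too (adjusted p = 0.0675 and 0.0696). Itga1, which binds collagen on mesenchymal cells, was at 9.36, 9.29, 9.39 and 7.39 in 344SQ and between 7.86 and 8.88 in the 8 other samples. On 3 of the 4 344SQ arrays it was above every other sample, and on replicate 4 below all of them, so the mean difference of 0.45 from 393P had a wide interval (-0.41 to 1.31, adjusted p = 0.566). The mean of 8 fibroblast markers was 12.20 to 12.46 in 344SQ, lowest on replicate 4, against 11.69 to 12.21 in 393LN and 11.47 to 12.13 in 393P, with 0 of 8 called by limma. All 8 had positive differences in both comparisons with 344SQ (medians of 0.41 and 0.48). At an unadjusted p under 0.05 in limma's fit 5 of the 8 were higher in each, beside 2052 and 1922 of all 18193 genes. The means of 8 leukocyte markers and of 7 mast cell markers were lowest on 344SQ replicate 4 among all 12 arrays, at 9.89 and 6.89. By contrast, the mean of 6 neutrophil markers was highest on that array among all 12, at 10.06. The part of any of these cells in the level of Itga1 was not tested. Itga10, a chain of cartilage, was dim in all lines, at 6.03, 6.0 and 5.81.

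**Figure D2:**
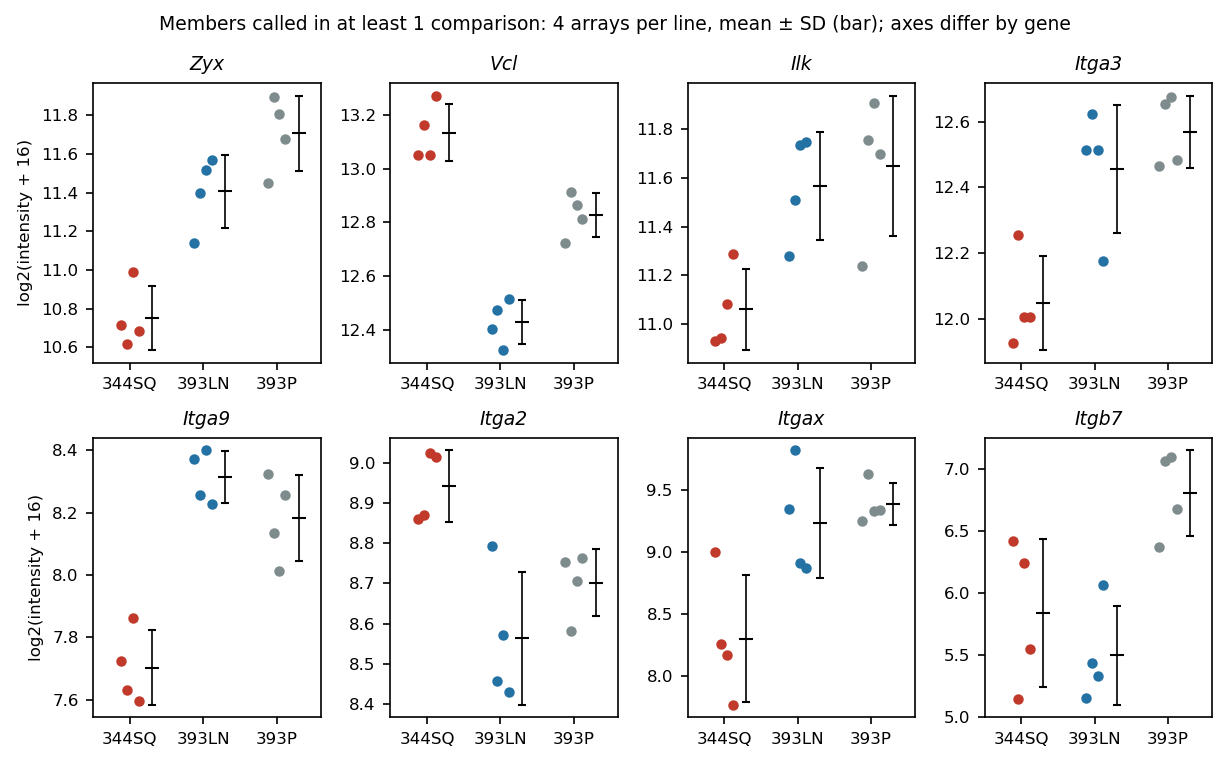
Level of the 8 members called in at least 1 comparison, as log2(intensity + 16), on the 4 arrays of each line (points) with the line mean and SD (bars); the vertical axes differ by gene. Zyx and Itga9 have all 344SQ points below those of both other lines, and the 3 lines are apart for Vcl.

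The receptors of fibronectin and vitronectin, which recognise an RGD sequence, were called in no comparison. Itgb1, the common partner of most alpha chains, was at 11.70, 11.78, 11.90 and 12.16 in 344SQ, 12.02, 11.82, 11.72 and 12.04 in 393LN and 11.19, 12.06, 12.16 and 12.19 in 393P. Its differences were -0.02 (95% interval -0.46 to 0.43), -0.01 (-0.46 to 0.43) and -0.003 (-0.45 to 0.44) in the 3 comparisons, in the order in which these were introduced. The lines overlapped, and 393P replicate 1 lay below every other array; the sign of each difference turned when single arrays were left out, and that against 393LN also with quantile normalization (0.0071). Itga5, the fibronectin receptor chain, was at 9.89, 9.95, 10.13 and 10.26 in 344SQ, 10.31, 9.85, 9.86 and 10.15 in 393LN and 9.36, 10.59, 10.02 and 9.52 in 393P, with differences of 0.19 and 0.02 in the 344SQ comparisons (adjusted p = 0.702 and 0.976).

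Itgav, the alpha chain of the vitronectin and TGF-beta-activating receptors, was at 12.95, 13.02, 12.94 and 12.65 in 344SQ, 12.66, 12.35, 12.23 and 12.42 in 393LN and 12.09, 12.71, 12.55 and 12.16 in 393P. Replicate 4 of 344SQ alone overlapped the other lines. Its differences of 0.51 (SE 0.16, adjusted p = 0.0564) and 0.47 (SE 0.16, adjusted p = 0.0745) from 393P and 393LN did not pass. Against 393P Itgav passed under 9 of 24 alternative settings, among them without 344SQ replicate 4 and without 393P replicate 2. Over the 24 its difference ranged from 0.21 to 0.625 (adjusted p of 0.0314 to 0.660 in limma). The other probe sets of Itgav, from bright to dim, had differences of 0.22, 0.39, -0.10 and 0.03 from 393P. From 393LN theirs were 0.02, 0.53, 0.02 and -0.02, and none was called. Its beta partners were called in no comparison. Itgb5, the vitronectin receptor chain of epithelium, had line means of 11.04, 10.93 and 10.88 in 344SQ, 393LN and 393P, Itgb3, of platelets, macrophages and endothelium, 8.57, 8.63 and 9.08, Itgb6, of epithelium, 6.43, 6.73 and 7.08, and Itgb8, which presents TGF-beta, 6.89, 6.55 and 6.36. Itgb6 had a difference of -0.65 from 393P (adjusted p = 0.101), and its other probe set -0.58, and Itgb8 one of 0.53 (adjusted p = 0.0939). Itga8, a chain of mesenchyme, lay at 7.21, 7.03 and 7.36, and was lower in all 393LN values than in all 393P values without passing (adjusted p = 0.107).

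Talin 1 (Tln1), which opens the integrin by binding the beta tail, was at 11.79, 11.65, 11.79 and 11.44 in 344SQ, 11.51, 11.19, 11.23 and 11.31 in 393LN and 11.16, 11.77, 11.60 and 11.42 in 393P. The lines overlapped, and the difference of 0.36 from 393LN was not called (adjusted p = 0.132). Paxillin (Pxn), the scaffold on which focal adhesion kinases dock, was at 11.78, 11.99, 11.97 and 11.79 in 344SQ, 11.96, 11.93, 11.97 and 11.75 in 393LN and 12.18, 11.99, 11.96 and 12.09 in 393P, with differences of -0.17 and -0.02 in the 344SQ comparisons (adjusted p = 0.330 and 0.930). Tln2, the other talin, had means of 8.19, 7.87 and 7.82, and Fermt2, the kindlin of non-blood cells, 10.64, 10.15 and 10.39. Ptk2b (Pyk2, a kinase related to focal adhesion kinase) was at 10.32, 10.06 and 10.37. None of these passed in any comparison.

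**Figure D3:**
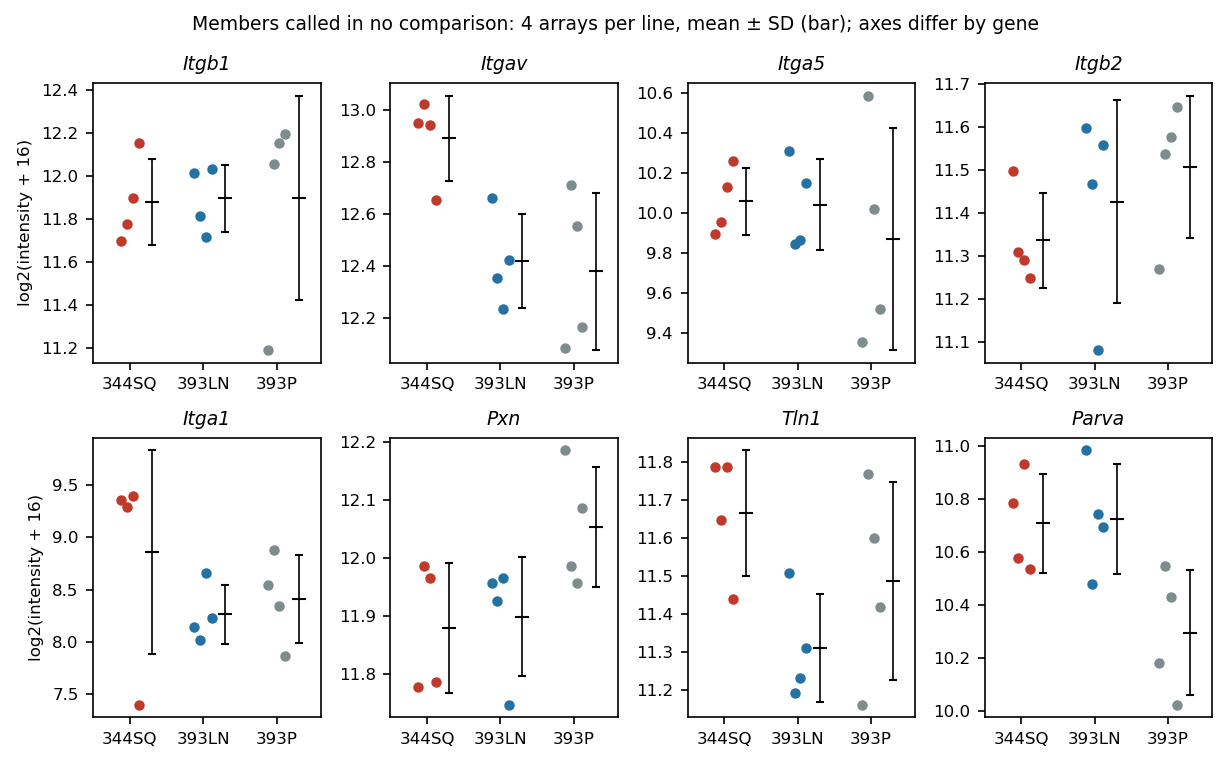
Level of 8 members that were called in no comparison, as log2(intensity + 16), on the 4 arrays of each line (points) with the line mean and SD (bars); the vertical axes differ by gene. The lines overlap in each panel; Itga1 on 344SQ replicate 4 (7.39) and Itgb1 on 393P replicate 1 (11.19) lie far from the other arrays of their line.

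Several members belong to leukocytes, and in whole tumours fewer leukocytes and less RNA per leukocyte cannot be told apart. Itgax, which encodes CD11c of dendritic cells and macrophages, was at 9.0, 8.26, 8.17 and 7.77 in 344SQ, 9.35, 9.82, 8.91 and 8.87 in 393LN and 9.25, 9.63, 9.33 and 9.34 in 393P. All 344SQ values were below those of 393P, and replicate 1 of 344SQ was above the lowest of 393LN. Itgax fell by 1.09 (SE 0.26, 2.12-fold, adjusted p = 0.0182) against 393P and by 0.94 (SE 0.26, 1.91-fold, adjusted p = 0.0363) against 393LN. Without 344SQ replicate 3 or 393P replicate 2 the first was not called (-1.04 and -1.0, adjusted p = 0.0514 and 0.0561). The second was lost without any of 7 arrays, namely 344SQ replicates 2, 3 and 4, 393LN replicates 1 and 2 and 393P replicates 3 and 4 (differences of -0.94 to -0.74, highest adjusted p 0.0938). Quantile normalization (-0.85, adjusted p = 0.0555) and a fit of only the 8 arrays compared (adjusted p = 0.0835) lost it too.

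Some macrophage markers were also lower in 344SQ. Of 10 measured, 4 fell in 344SQ against 393P (Aif1, Tyrobp, Fcer1g and Cd14) and 6 were not called, beside 5.62% of all genes that fell. Against 393LN 2 fell (Aif1 and Tyrobp) and 8 were not called, beside 6.92% of all genes. The differences were negative for 9 of 10 in both comparisons (medians of -0.71 and -0.55); Mrc1, the mannose receptor, went the other way, with differences of 0.68 and 0.48 that were not called (adjusted p = 0.105 and 0.244). The mean level of the 10 was 10.54 to 11.25 in 344SQ, 10.96 to 11.54 in 393LN and 11.21 to 11.87 in 393P. Of 5 dendritic cell markers and 8 pan-leukocyte markers, 0 were called in either comparison, and all 8 leukocyte markers had negative differences. The dendritic cell mean was 5.70 to 6.35, 5.86 to 6.24 and 5.88 to 6.36 in the 3 lines, in the same order. What part these cells have in the fall of Itgax was not tested.

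Itgal, Itga4 and Fermt3 spread widely within 344SQ. Itgal, the alpha chain of LFA-1 on lymphocytes, was at 9.07, 7.96, 8.73 and 7.71 on 344SQ replicates 1 to 4, and Itga4, the VCAM-1 receptor chain, at 8.28, 7.09, 8.25 and 7.16. Fermt3, the kindlin of blood cells, was at 9.92, 9.16, 9.82 and 8.99. Each was lower on replicates 2 and 4 than on any array of 393LN or 393P. The mean of 8 leukocyte markers was likewise 10.73, 10.16, 10.73 and 9.89 on these replicates, against 10.36 to 10.90 in 393LN and 10.41 to 11.17 in 393P. Of 7 T and NK cell markers 1, Cd2, rose against 393P by 0.94 (14.3%, beside 4.86% of all genes), and 0 fell. Differences from 393P were positive for 3 and negative for 4, down to -1.88 for Gzma. The mean of these 7 was 7.61, 6.64, 6.99 and 6.25 in 344SQ. Beside this spread the differences of Itgal (-0.63), Itga4 (-0.68) and Fermt3 (-0.49) from 393P were not called (adjusted p = 0.271, 0.189 and 0.265).

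Itgb2, the beta chain shared by LFA-1, Mac-1 and CD11c, was at 11.50, 11.31, 11.29 and 11.25 in 344SQ, 11.60, 11.47, 11.08 and 11.56 in 393LN and 11.27, 11.54, 11.58 and 11.65 in 393P. Its difference between 344SQ and 393P was -0.17 (95% interval -0.46 to 0.12, adjusted p = 0.501). Itgam, the alpha chain of Mac-1 on neutrophils and macrophages, was measured by a dim probe set at 6.38, 6.30 and 6.33. Itgb7, the chain of gut-homing lymphocytes and mast cells, was at 6.42, 5.14, 6.24 and 5.55 in 344SQ, 5.15, 5.44, 5.33 and 6.06 in 393LN and 6.37, 7.06, 7.10 and 6.68 in 393P. In 393LN it lay below 393P on every array, by 1.31 on average (a difference of -1.31, SE 0.29, 2.48-fold, adjusted p = 0.0394). In 344SQ, where replicates 2 and 4 were as low as 393LN, the difference from 393P was -0.97 (SE 0.29, adjusted p = 0.0550), which passed under 7 of 22 alternative settings. This gene has 1 dim probe set, whose difference between 393LN and 393P depends on the pseudocount: it was -1.71 with a pseudocount of 1 (adjusted p = 0.0613, not called) and -0.77 with 64 (adjusted p = 0.0318). The call was lost without any of 393LN replicates 1, 2 and 3 or 393P replicates 2, 3 and 4 (differences of -1.35 to -1.19, highest adjusted p 0.112). The T and NK cell mean was 7.20 to 7.88 in 393LN and 6.56 to 7.75 in 393P. The mast cell mean was 6.99 to 7.21 in 393LN against 7.32 to 7.62 in 393P. Between these lines 0 of 7 of either list were called, beside 2.45% of all genes. In 393LN against 393P all 7 mast cell markers had negative differences (median -0.365). All 7 T and NK cell markers had positive ones (median 0.47). The part of these cells in the difference of Itgb7 was not tested. Itgae, the partner of beta7 on intraepithelial lymphocytes, was at 7.50, 7.35 and 7.31 and was not called.

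**Figure D4:**
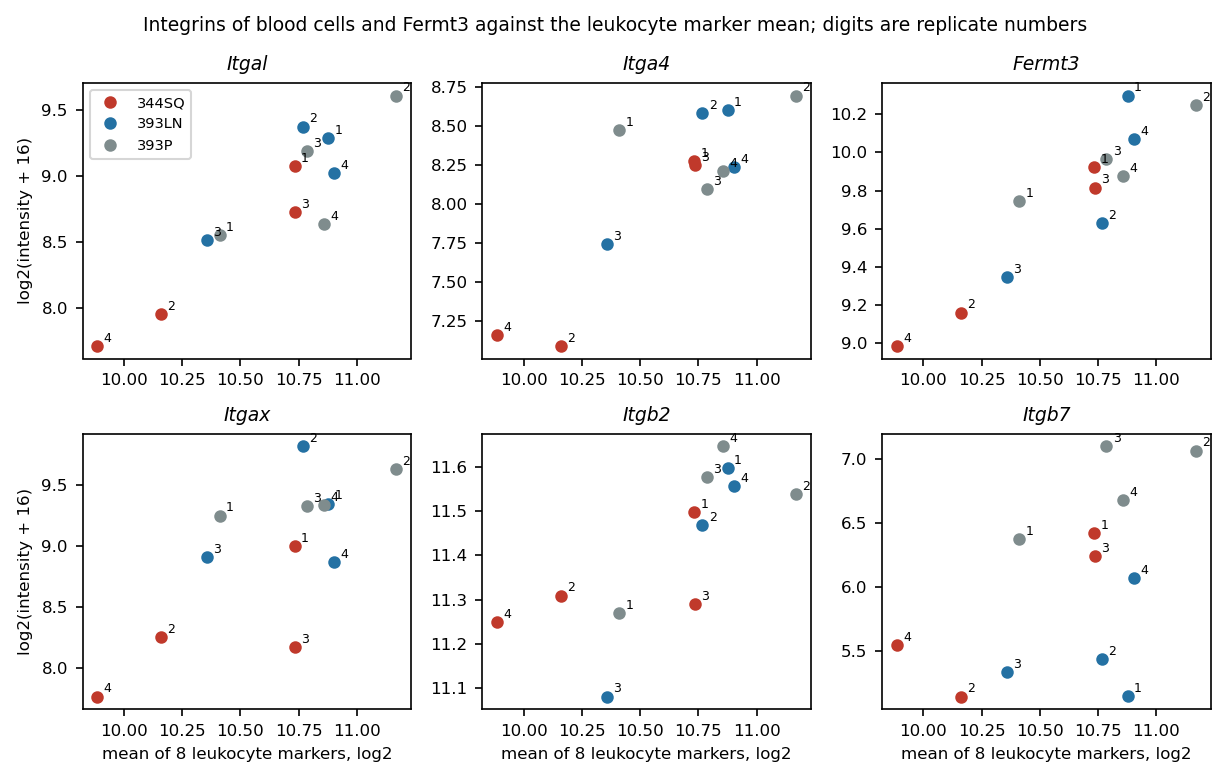
Level of 5 integrin genes of blood cells and of Fermt3 (vertical axes, log2(intensity + 16)) against the mean of 8 leukocyte markers (horizontal axis, log2) on the 12 arrays; colours are lines and digits replicate numbers. For Itgal and Fermt3 the lowest points are 344SQ replicates 4 and 2, at marker means of 9.89 and 10.16, whereas Itgb7 is low on these 2 arrays (5.14 and 5.55) and also in 393LN, at marker means of 10.36 to 10.90.

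Itga2b, the platelet fibrinogen receptor chain, was called in no comparison, at 9.03, 8.95 and 8.91 in 344SQ, 393LN and 393P. Among 6 platelet markers only Ppbp fell in 344SQ against 393P (16.7%, beside 5.62% of all genes), and 0 rose. Differences ranged from -2.05 for Ppbp to 0.50 for Pf4, with 2 positive and 4 negative. Pf4 was at 11.58, 12.37, 12.32 and 11.99 in 344SQ and at 12.24, 11.39, 11.09 and 11.55 in 393P. Gp9 lay near the floor in every line (means of 4.57, 4.44 and 4.47). The list's mean was 8.25 to 8.92 in 344SQ, 8.61 to 8.87 in 393LN and 8.96 to 9.07 in 393P.

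Around the members, other focal adhesion adaptors and kinases moved in both directions. Of 70 measured, 6 rose and 5 fell in 344SQ against 393P (median 0.03), 15.7% in all, and 7 rose and 7 fell against 393LN (median 0.03), 20% in all, beside 10.5% and 10.9% of all genes. Enah, an Ena/VASP actin regulator that zyxin binds, was at 9.74, 9.86, 10.60 and 10.35 in 344SQ, 11.65, 11.66, 11.70 and 11.35 in 393LN and 11.50, 11.89, 11.65 and 11.64 in 393P. It fell by 1.53 (SE 0.18, adjusted p = 0.000200) and by 1.45 (SE 0.18, adjusted p = 0.000448), with no overlap in either comparison. Cttn, the cortical actin protein cortactin, fell by 0.44 and 0.31. Higher in 344SQ were Dock1, a Rac activator downstream of p130Cas (0.63 and 0.93), Cav1, the caveolar coat protein (0.88 and 0.77), Kank2, a talin-binding protein (1.17 and 1.49), and Pdlim5, a PDZ-LIM protein of actin fibres (0.77 and 0.96). The fibroblast markers were shifted the same way, by medians of 0.41 and 0.48, and their part in these rises was not tested. Between 393LN and 393P only Sorbs2, a vinculin-binding adaptor, was called of the 70 (1.43%, beside 2.45% of all genes). It fell in 393LN by 0.80 (adjusted p = 0.0205). At an unadjusted p under 0.05 in limma's fit 5 of the 70 were higher and 7 lower, beside 1824 and 1027 of all 18193 genes.

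Among 32 integrin ligands 1 rose and 1 fell in 344SQ against 393P, and 2 rose and 3 fell against 393LN (medians of 0.03 and 0.18). That is 6.25% and 15.6% called either way, beside 10.5% and 10.9% of all genes. Npnt, or nephronectin, a basement membrane ligand of alpha8-beta1, was at 11.17, 11.63, 11.81 and 11.71 in 344SQ and at 12.57 to 13.02 on the other 8 arrays. It fell by 1.33 and 1.14 (adjusted p = 0.000126 and 0.000538). Lamc1, the gamma1 chain of most laminins, rose by 0.91 and 0.79. Icam2, a ligand of LFA-1, and Edil3, an RGD protein, fell by 0.86 and 0.94 against 393LN. Between 393LN and 393P 0 ligands were called by limma, beside 2.45% of all genes. At an unadjusted p under 0.05 in limma's fit 2 of the 32 were higher and 4 lower, beside 1824 and 1027 of all 18193 genes.

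**Figure D5:**
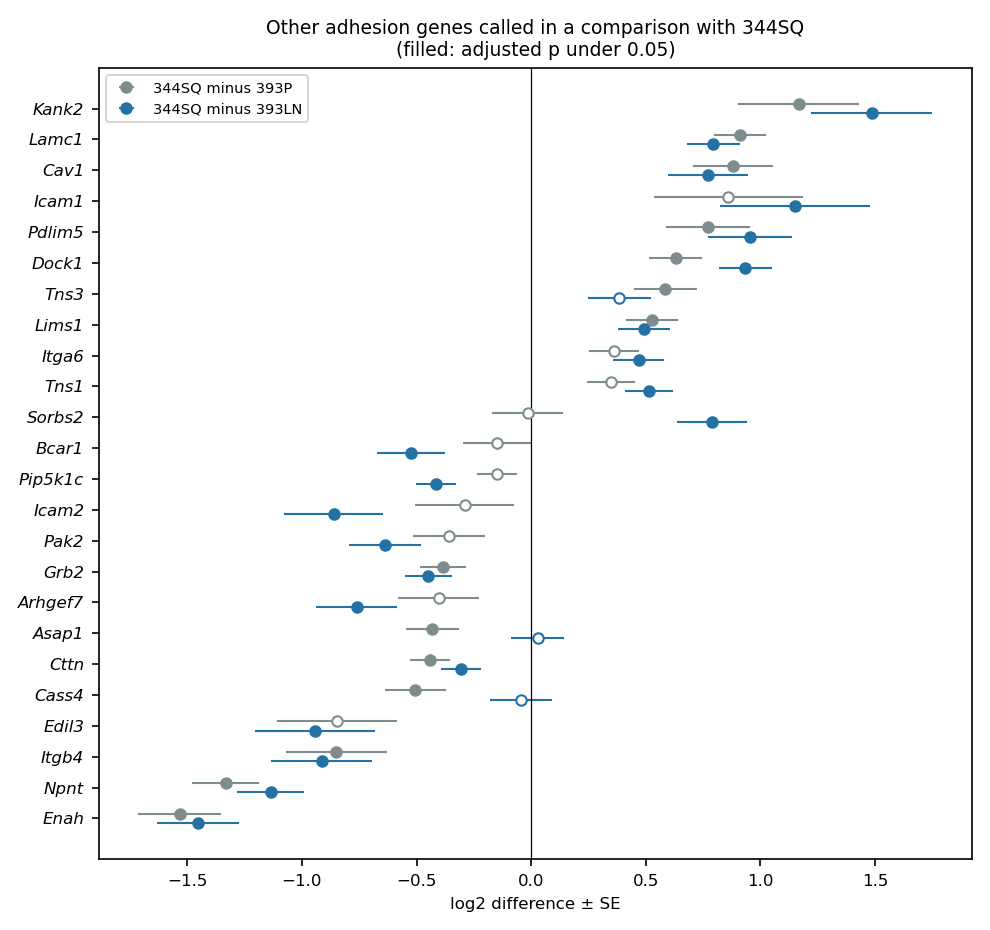
Log2 difference ± SE (horizontal axis) of the 24 other adhesion genes called in at least 1 comparison with 344SQ, against 393P (grey) and against 393LN (blue), which share the 344SQ arrays; filled points have an adjusted p under 0.05. The number called in both was 11, and Enah and Npnt are at the low end and Kank2 at the high end.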

How the data were processed

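Biotin-labelled RNA of 12 tumour samples was measured on Affymetrix arrays. The authors deposited probe set intensities on a linear scale, never below 1; the software behind them is not stated in the labels, and every value is 2 to a power with 2 decimals. The table holds 45101 probe sets, more than the chip that the design text names. 34945 have 1 gene symbol, 932 several, 9160 none and 64 are controls. Each of 18193 genes was represented by its brightest probe set on average, with no filter on low values and no further normalization, since array medians differed by under 0.25. Values were taken as log2(intensity + 16) of the deposited intensities. All 12 arrays entered a model with line as the only term (limma 3.58.1, lmFit and eBayes, R 4.3.3), with 9 residual degrees of freedom and two-sided Benjamini-Hochberg adjustment over all genes, or over all 34945 probe sets for single probe sets. The scripts were tested on simulated data with changes of at least 2-fold in the brighter genes. The recovery of smaller changes or of dim genes was not tested.

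The members and lists were chosen with earlier results of these data known. Every member called in a comparison, and a fixed set of others, is given on every array; of each wider list the genes with the smallest p are named. Fixed lists held other focal adhesion genes, integrin ligands, other integrins and markers of cell types. Means of markers for B cells (3 measured), endothelium (8), smooth muscle (7), skeletal muscle (5) and neutrophils (6) overlapped between the lines. Alternatives were other scalings, pseudocounts, filters, probe set choices, priors and array sets. Arrays have no depth; their number limits the precision.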

Additional observations from a re-analysis of the deposited data

Results flagged for a closer look

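In each of the 99 groups of 4 values (33 members, 3 lines) the highest and the lowest array were set against the others, and 3 groups had an array far from the rest; chance alone flags about 1 in 20 groups. Itga1 read 7.39 on 344SQ replicate 4, against 9.29 to 9.39 on the rest of that line. Itgb1 read 11.19 on 393P replicate 1, against 12.06 to 12.19 on the rest of its line, and that array also had the highest 3' to 5' actin ratio, 1.47. Tln2 read 8.36 on 393LN replicate 1, against 7.68 to 7.72 on the remaining 393LN arrays.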

How the results depend on the processing

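Over 42 gene results, 999 values under alternative settings were computed: 829 kept direction and side of the threshold, 77 lost the call, 36 gained one and 57 turned sign, 1 of them for a called result. Quantile normalization, a pseudocount of 64 and a trended, robust prior each called 8 members between 344SQ and 393P, array weights 11, and the mean of all probe sets and the most variable probe set 3 each. Between 344SQ and 393LN the mean of all probe sets and a fit of only the 8 arrays compared gave 3 members and the most variable probe set 1. Between 393LN and 393P a pseudocount of 1 gave 0, and filters on the dimmest 25% or 50% of genes, the mean, the most variable probe set and the 8 arrays gave 1. Leaving out 1 array gave 3 to 7, 3 to 7 and 0 to 2 members in the 3 comparisons. For the wider adhesion genes it gave 9 to 18 (14 with all arrays), 12 to 24 (21) and 0 to 2 (1), lowest without 344SQ replicate 1 and 344SQ replicate 2 in the first and second. The most variable probe set gave 11 between 344SQ and 393LN; between 393LN and 393P quantile normalization and the trended prior gave 2, a pseudocount of 64 and leaving out the dimmest 25% or 50% gave 3, array weights 4, and the mean and the 8 arrays 0. Over all genes, the calls between 344SQ and 393P were 1907, 3320 with array weights and 1259 without 393P replicate 3; between 344SQ and 393LN 1984, and 1167 without 344SQ replicate 2; between 393LN and 393P 446, 883 with array weights, 174 over the 8 arrays and as few as 156 without 393P replicate 3. The fits over 8 arrays and without an array have fewer samples; the cause of the other shifts was not tested.

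The signs turned as follows. With the most variable probe set, the difference between 344SQ and 393P was 0.0166 for Itgb1, -0.33 for Itga5, 0.0293 for Pxn and -0.76 for Tln1; that of Tln1 from 393LN was -0.0723; those between 393LN and 393P were 0.52 for Itga3, -0.0911 for Itga9, 0.0232 for Vcl, 0.0835 for Itgb1, -0.14 for Itgav, -0.45 for Itga5 and 0.11 for Pxn. With the mean of all probe sets, Tln1 was at -0.20 between 344SQ and 393P, and Itga3 at 0.14, Itga9 at -0.0479, Itgb1 at 0.0204 and Itga5 at -0.0882 between 393LN and 393P. Between 344SQ and 393LN, quantile normalization gave 0.0071 for Itgb1 and 0.0026 for Pxn, centring on the median 0.0106 and 0.0056, and array weights -0.0019 for Itga5 and 0.0278 for Pxn; array weights gave -0.0793 for Itgav between 393LN and 393P. Without both 344SQ replicate 4 and 393P replicate 1, a choice made after the data were seen, Itga5 was at -0.0502, -0.0494 and -0.0008 in the 3 comparisons, Pxn at 0.0108 between 344SQ and 393LN, and Itgav at -0.0582 between 393LN and 393P. Leaving out 1 array, Itgb1 ranged over -0.254 to 0.081, -0.106 to 0.0465 and -0.239 to 0.096 in the 3 comparisons. Between 344SQ and 393LN Itga5 ranged over -0.0494 to 0.106 and Pxn over -0.0705 to 0.0141. Between 393LN and 393P Ilk ranged over -0.219 to 0.014, Itgav over -0.0582 to 0.151, Itga5 over -0.0008 to 0.409 and Itgb2 over -0.162 to 0.0331. No paired analysis was possible because the replicate numbers only follow the order of the samples. Signal over background limits Itga10, Itgam and Itgb7, which lie among the dimmest 25% of genes.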
